A study of Mus musculus with 6 samples.

Results

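The cholesterol synthesis enzymes were described here by 9 genes, taken in the order in which their products act: Hmgcs1, Idi1, Fdps, Fdft1, Sqle, Lss, Cyp51, Nsdhl and Dhcr7. Every Affymetrix probe set that the platform annotation assigns to 1 of these genes alone was used, which gave 14 probe sets for the 9 genes, among 10833 probe sets for 8251 genes on the array. The arrays compared mammary glands of LH transgenic mice with those of wild type mice. The transgenic mice overproduce luteinizing hormone (LH), which the pituitary releases to drive the gonads. All mice were virgins of an F1 CF-1/FVB background aged 16 weeks, and only thoracic glands were taken. Each group held 3 arrays, and each array measured a pool of RNA of 3 mice, so there are no values for single mice. No source used here gives the promoter of the LH transgene or the hormone levels of the mice. In whole glands, fewer cells of a type and less RNA per cell cannot be told apart.

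Cells build cholesterol from acetyl-CoA. Hmgcs1 makes HMG-CoA in the cytosol, and later enzymes turn it by way of mevalonate into isoprene units. Idi1 isomerises these units and Fdps joins them into farnesyl diphosphate, from which the prenyl branch also draws. Fdft1 makes squalene, Sqle and Lss oxidise and close it into lanosterol, and Cyp51, Nsdhl, Ebp and Dhcr7 are among the enzymes that trim lanosterol to cholesterol. SREBP transcription factors, with NF-Y and Sp1 bound nearby, switch these genes on when membranes are short of sterol. In the mammary gland both fat cells and milk-secreting epithelium make sterol and fatty acids.

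Of the 8 members bright enough to be tested, Nsdhl, Dhcr7, Hmgcs1 and Lss fell, to between 49.7% and 63.2% of their mean wild type signal. The other 4, Idi1, Fdps, Fdft1 and Sqle, had differences below 0 and did not pass the threshold. No member rose: limma gave 0 higher calls and 0 higher at an unadjusted p under 0.05, against 6 lower at that p. A call means a p under 0.05 after Benjamini-Hochberg adjustment in a limma fit over the whole table, and each gene was represented by its brightest probe set. Across the array, 667 of 5731 tested genes (11.6%) were called lower, and 569 (9.93%) higher. The median difference, given throughout as LH transgenic minus wild type in log2(signal + 80.0), was -0.62 over the 8 members and 0.01 over the 5731 genes.

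By probe set, 11 of the 14 passed the filter on dim signals (a mean of at least 336.0 over the 6 arrays). All 11 had differences below 0, and 5 of them were called lower, where 805 of 7453 tested probe sets (10.8%) were called lower over the whole table. In 9 of the 11, every LH transgenic array lay below every wild type array, which held for 1474 probe sets (19.8%) in all. The 3 probe sets under the filter were the only one for Cyp51 and the dimmest pair of 4 for Fdps. Probe sets of 1 gene measure the same transcript and are not independent.

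**Figure D1:**
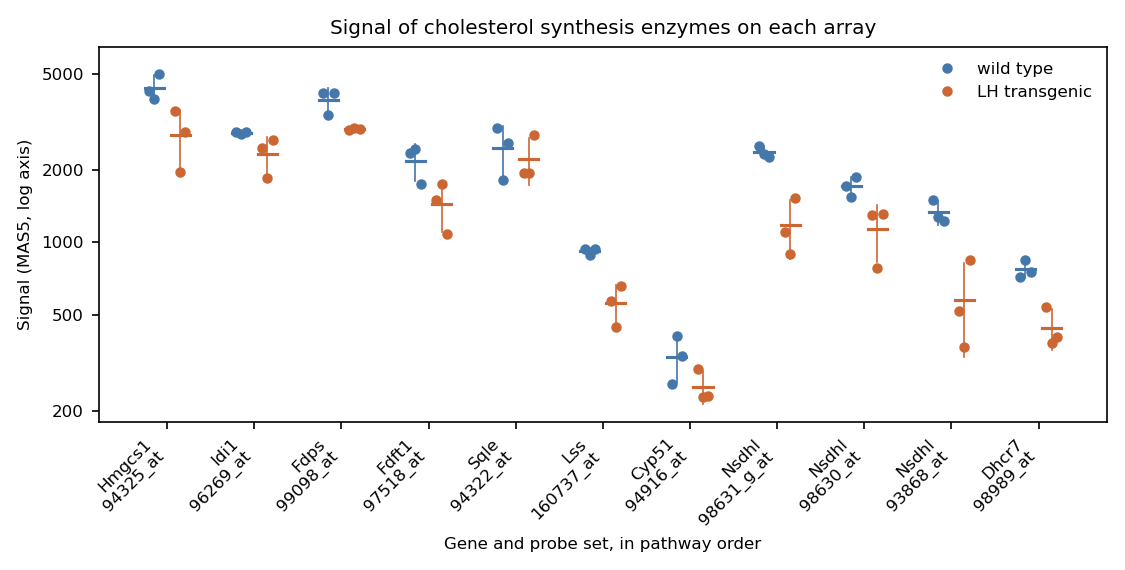
Signal (vertical log axis, MAS5 units) of each member's brightest probe set, with all 3 probe sets of Nsdhl, in pathway order on the horizontal axis. Points are arrays, horizontal lines the mean and vertical lines ± SD over the 3 arrays of a group. The groups are apart for Hmgcs1, Idi1, Fdps, Lss, Nsdhl and Dhcr7 and overlap for Fdft1, Sqle and Cyp51.

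The start sites of the 4 genes that fell are shown because members of this pathway are known targets of shared factors. The sequences come from RefSeq (GRCm38.p6), run 5′ to 3′ on the strand of the gene, and cover 250 bases before to 50 after the start. Capitals mark matches on either strand (those on the minus strand read as the reverse complement) to TCACNCCAC (the core of a sterol regulatory element), CCAAT (NF-Y) and GGGCGG (Sp1); CACGTG (an E box) was also searched and was found in none of the 4. Hmgcs1 lies at chr13:119690101-119690400, Lss at chr10:76531355-76531654, Nsdhl at chrX:72918271-72918570 and Dhcr7 at chr7:143822917-143823216, each on the plus strand. RefSeq lists 3 starts for Dhcr7, and the window at the start of its gene model is given.
Hmgcs1: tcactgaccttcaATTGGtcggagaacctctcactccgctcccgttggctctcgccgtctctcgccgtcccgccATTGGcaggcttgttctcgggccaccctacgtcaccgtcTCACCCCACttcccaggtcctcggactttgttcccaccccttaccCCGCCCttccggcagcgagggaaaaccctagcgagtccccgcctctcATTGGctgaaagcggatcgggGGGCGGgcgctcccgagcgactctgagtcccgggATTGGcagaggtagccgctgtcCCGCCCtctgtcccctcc
Lss: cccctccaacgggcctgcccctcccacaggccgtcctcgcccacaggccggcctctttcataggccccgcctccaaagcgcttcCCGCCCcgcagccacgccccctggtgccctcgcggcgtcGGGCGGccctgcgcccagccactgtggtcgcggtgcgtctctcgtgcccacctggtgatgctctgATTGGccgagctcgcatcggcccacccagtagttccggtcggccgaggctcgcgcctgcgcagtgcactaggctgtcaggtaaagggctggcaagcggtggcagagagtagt
Nsdhl: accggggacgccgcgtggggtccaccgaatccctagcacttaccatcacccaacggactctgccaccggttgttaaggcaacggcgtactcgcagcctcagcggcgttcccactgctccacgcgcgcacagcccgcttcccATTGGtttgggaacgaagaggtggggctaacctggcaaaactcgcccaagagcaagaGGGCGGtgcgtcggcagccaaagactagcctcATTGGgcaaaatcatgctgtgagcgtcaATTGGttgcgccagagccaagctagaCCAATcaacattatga
Dhcr7: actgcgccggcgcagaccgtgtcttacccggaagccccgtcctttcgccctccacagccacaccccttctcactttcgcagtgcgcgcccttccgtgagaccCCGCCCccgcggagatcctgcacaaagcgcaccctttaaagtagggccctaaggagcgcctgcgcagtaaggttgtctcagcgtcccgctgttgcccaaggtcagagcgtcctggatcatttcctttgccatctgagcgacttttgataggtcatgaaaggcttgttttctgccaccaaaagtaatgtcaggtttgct

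The table of promoters held 6 of the 9 members, these 4 with Idi1 and Cyp51. The sterol element core was found in 1 of the 6, Hmgcs1, where it begins 137 bases before the start, and in 1.24% of all 32851 windows of this length. NF-Y letters were found in 5 of the 6 and in 37.4% of all windows. Hmgcs1 and Nsdhl held 4 such matches each, Idi1 2, Lss and Cyp51 1 each, and Dhcr7 none in this window. Sp1 letters were in 6 of 6 and in 35.7% of all windows, and E box letters in 0 of 6 and in 7.15%. The window of Ebp, a pathway enzyme outside the members that was called higher, held 2 NF-Y matches and 1 Sp1 match. These are matches of letters, not measured binding, and no matches overlapped in these 6 windows.

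Hmgcs1, cytosolic HMG-CoA synthase, opens the pathway. Its signals were 4256.9, 3951.7 and 5018.2 in wild type pools 1 to 3 and 3511.5, 1959.9 and 2889.9 in LH transgenic pools 1 to 3. The groups did not overlap, and LH transgenic pool 2 was the lowest array. The mean fell from 4409 ± 549 to 2787 ± 781 (SD, n = 3 each), a log2 difference of -0.68 (SE 0.20, limma adjusted p 0.0415). The call was close to the threshold. It was lost in 8 of 17 other settings, with differences of -0.45 without LH transgenic pool 2 (adjusted p 0.0881) and -0.58 without wild type pool 3 (adjusted p 0.14). It was also lost without wild type pool 1 or 2 or LH transgenic pool 3, with no filter on dim signals, without an intensity trend in the variance, and with array weights.

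Idi1, which isomerises the isoprene unit, had closely grouped wild type signals of 2878.3, 2815.4 and 2879.2. The LH transgenic signals were 2459.4, 1858.5 and 2674.9, all lower, with pool 2 again the lowest. Its difference of -0.30 (95% CI -0.65 to 0.04) was not called (limma adjusted p 0.199).

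Fdps, farnesyl diphosphate synthase, was measured by 4 probe sets. The brightest gave 4196.2, 3374.0 and 4181.1 in wild type and 2922.9, 2989.5 and 2976.7 in LH transgenic pools, where the signals were nearly equal. Its difference was -0.39 (95% CI -0.68 to -0.09) with a limma adjusted p of 0.0656. The second probe set gave a like difference, -0.38, from 2337 ± 450 to 1763 ± 106 (SD, n = 3 each; adjusted p 0.133). Neither was called, although the groups did not overlap in either. The dimmest pair, with means of 129 and 33.1 over the 6 arrays, had overlapping groups and was not tested.

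Fdft1, squalene synthase, makes the first product used for sterols alone. It had 2359.3, 2452.4 and 1746.7 in wild type and 1495.3, 1755.8 and 1083.1 in LH transgenic pools. Wild type pool 3 lay just below LH transgenic pool 2, so that the groups overlapped by this pair of arrays. The mean was 2186 ± 383 against 1445 ± 339 (SD, n = 3 each), with a difference of -0.58 (95% CI -1.03 to -0.13; limma adjusted p 0.066). Unlike most members, it was lowest in LH transgenic pool 3.

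Sqle, squalene epoxidase, a rate-limiting oxygenase of the pathway, showed the smallest difference among the tested members. Its signals were 2995.6, 1819.7 and 2584.0 in wild type and 1948.0, 1947.1 and 2803.5 in LH transgenic pools. The lowest array of all 6 was wild type pool 2, and LH transgenic pool 3 exceeded 2 of the 3 wild type arrays. The difference was -0.13 with a 95% CI of -0.60 to 0.34 (limma adjusted p 0.702). Without wild type pool 1 it was 0.02.

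Lss, lanosterol synthase, closes the sterol rings. Signals were 940.7, 883.0 and 936.4 in wild type and 571.8, 443.3 and 660.2 in LH transgenic pools, well apart. The mean fell from 920 ± 32.1 to 558 ± 109 (SD, n = 3 each), a difference of -0.66 (SE 0.18, limma adjusted p 0.025). The call was lost without any 1 of wild type pools 1, 2 and 3 or LH transgenic pools 1 and 2, at adjusted p up to 0.0823, and with no filter. Its difference stayed between -0.78 and -0.53 with any 1 array left out.

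Cyp51, lanosterol demethylase, lay under the filter with a mean of 293 and was not tested. It gave 258.5, 408.5 and 337.2 in wild type and 296.8, 227.0 and 230.7 in LH transgenic pools, with overlapping groups. In a fit without the filter its difference was -0.31 (95% CI -0.83 to 0.21).

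Nsdhl, a sterol dehydrogenase that helps strip methyl groups from the ring, had the largest difference among the members. Its brightest probe set gave 2523.7, 2333.5 and 2261.8 in wild type and 1108.6, 893.5 and 1537.1 in LH transgenic pools. The highest LH transgenic array thus lay far below the lowest wild type array. The mean fell from 2373 ± 135 to 1180 ± 328 (SD, n = 3 each), a difference of -0.99 (SE 0.19, limma adjusted p 0.00579). A further probe set fell by 1.17 (SE 0.25, adjusted p 0.01), from 1336 ± 150 to 578 ± 243. The other had 1716 ± 164 and 1134 ± 303, and its difference of -0.60 missed the threshold (adjusted p 0.062). All 3 probe sets ranked the LH transgenic pools with pool 2 lowest and pool 3 highest. Nsdhl kept its call in all 17 other settings for the brightest probe set and in all 16 in which the dimmer called probe set was tested, which no other member did.

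Dhcr7, the reductase that completes cholesterol, had 719.3, 847.6 and 756.9 in wild type and 538.7, 381.4 and 403.9 in LH transgenic pools. The groups did not overlap. The mean fell from 775 ± 66.0 to 441 ± 85.1 (SD, n = 3 each), a difference of -0.72 (SE 0.18, limma adjusted p 0.0209). Leaving out any 1 wild type pool, or LH transgenic pool 2, ended the call, at adjusted p up to 0.0781. With any 1 array left out the difference stayed between -0.85 and -0.64.

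Among the tested members, the lower calls fell at the entry of the pathway (Hmgcs1), at ring closure (Lss) and at Nsdhl and Dhcr7. The late steps were not called lower throughout. Tm7sf2, Lbr, Msmo1 and Sc5d gave no call, though their differences were below 0 (-0.26, -0.37, -0.75 and -0.34). Ebp was called higher, though not on the bacterial control scale. Leaving out any 1 wild type pool left 1 member gene called. The steps from Idi1 to Sqle gave no call. Whether the early and the late steps differ from each other was not tested, and the intervals of Idi1, Fdps and Fdft1 overlap those of Hmgcs1 and Lss. Within the LH transgenic group, pool 2 was the lowest array for 6 of the 8 tested genes. For Sqle, 1 of these 6, it was nearly tied with pool 1 (1947.1 against 1948.0). The median over these genes, relative to the wild type mean, was -0.43, -0.74 and -0.51 in LH transgenic pools 1 to 3, against 0.06, -0.04 and 0.02 in the wild type pools. All 8 genes lay below the wild type mean in LH transgenic pools 1 and 2, and 7 of 8 in pool 3, where Sqle was the exception.

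**Figure D2:**
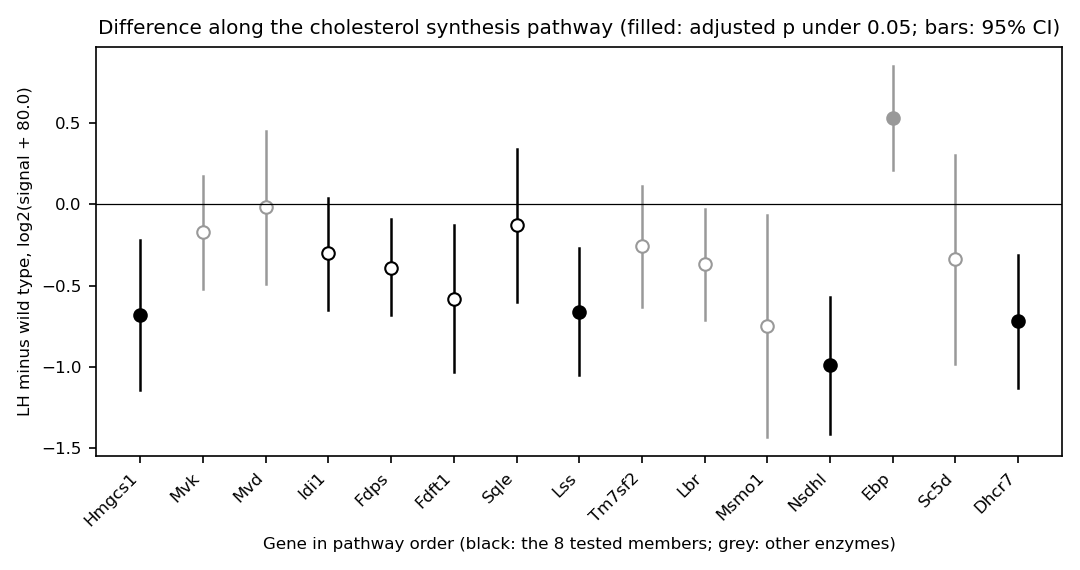
Difference between groups (vertical axis, log2(signal + 80.0)) for the tested enzymes from Hmgcs1 to Dhcr7 in pathway order (horizontal axis). Points are estimates from limma with 95% confidence intervals, black for the 8 tested members and grey for other enzymes, and filled where the adjusted p was under 0.05. Nsdhl lies lowest at -0.99 and Ebp, at 0.53 (and at -0.13 on the bacterial control scale), is the 1 filled point above 0.

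The other enzymes of the pathway came from a list of 15 symbols, some of them older names of the same gene. Of these, 9 genes had a probe set of their own and 8 were tested. By limma 1 rose and 0 fell, with 2 lower at an unadjusted p under 0.05, a median of -0.22 and 7 of 8 differences below 0. The gene that rose was Ebp, the sterol isomerase whose substrate follows from the Nsdhl steps and whose product leads to Sc5d and Dhcr7. Ebp signals were 1128.2, 1329.0 and 1266.4 in wild type and 1897.4, 1979.0 and 1614.0 in LH transgenic pools, so that every LH transgenic array was higher. The difference was 0.53 (SE 0.14, limma adjusted p 0.0267), but -0.13 when arrays were scaled to their bacterial hybridisation controls (adjusted p 0.68). Scaling cancels inside an array, and there Nsdhl minus Ebp, with the wild type mean set to 0, was -1.63, -1.97 and -0.96 in LH transgenic pools 1 to 3 and 0.21, -0.12 and -0.10 in the wild type pools. Dhcr7 minus Ebp was -1.05, -1.53 and -1.18 against 0.03, 0.03 and -0.06. These pairs were chosen for their values, as the lowest members against the 1 enzyme called higher, so the gaps are a description of that choice. With 1 array left out, the call of Ebp held only without LH transgenic pool 3 (adjusted p otherwise 0.0513 to 0.101).

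None of the remaining tested enzymes was called. Msmo1, a sterol methyl oxidase that acts just before Nsdhl, had 515.1, 653.5 and 461.3 in wild type and 147.2, 393.6 and 381.0 in LH transgenic pools, with no overlap. Its difference of -0.75 had a wide 95% CI of -1.43 to -0.07 (limma adjusted p 0.109). Lbr, which reduces the sterol ring besides its role in the nuclear envelope, differed by -0.37 (adjusted p 0.116), and its paralog in that step, Tm7sf2, by -0.26 (adjusted p 0.298). The mevalonate enzymes Mvk (-0.17) and Mvd (-0.02) and the late desaturase Sc5d (-0.34) had intervals that held 0. Dimmer probe sets of Mvk and Tm7sf2 lay under the filter. In a fit without the filter, that of Mvk gave -1.03 (95% CI -1.87 to -0.20) and that of Tm7sf2 0.33 (95% CI -0.13 to 0.80). The branch enzyme Ggps1 gave -0.17 and 0.25 by its different probe sets. Hsd17b7 lay under the filter, with 76.4 to 101.9 in wild type and 118.0 to 161.8 in LH transgenic pools.

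Genes that control the pathway were sparsely covered. Srebf1, which encodes SREBP-1, had 17428.2, 19755.0 and 15894.8 in wild type and 12078.4, 18070.3 and 19381.1 in LH transgenic pools. Its groups overlapped widely, and the difference of -0.12 (95% CI -0.53 to 0.28) was not called (limma adjusted p 0.674). Mbtps1, the protease that starts SREBP cleavage, differed by -0.18 (adjusted p 0.358). Nr1h3, the sterol-sensing receptor LXR alpha, fell from 2286 ± 241 to 1465 ± 319 (SD, n = 3 each), by 0.63 on the log2 scale (adjusted p 0.0334). That call was lost with no filter and on leaving out LH transgenic pool 3 or wild type pool 1 or 3, at adjusted p up to 0.114. Insig1, the sterol-regulated anchor of SREBP, had signals of at most 57.0 and was not tested. Srebf2 was not analysed, because the annotation used assigns no probe set to it alone. Of the 4 control genes on the array, 3 were tested and 1 fell.

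Of 13 tested genes of cholesterol uptake, transport, export and storage, 3 fell and 0 rose by limma (median -0.01; 5 lower and 1 higher at an unadjusted p under 0.05). Scp2, a sterol carrier protein of peroxisomes, fell from 7733 ± 244 to 3705 ± 175 (SD, n = 3 each), a difference of -1.05 (limma adjusted p 0.000508). Pltp, which moves phospholipid between lipoproteins, fell from 8838 ± 799 to 4476 ± 588 (-0.97), and Lrp1, a lipoprotein receptor, from 7486 ± 969 to 3913 ± 228 (-0.92). All 3 kept their calls in every one of the 17 other settings. Apoe (0.02), Abca1 (0.07 and -0.52 by its different probe sets) and the lysosomal lipase gene Lipa (0.67, adjusted p 0.065) were not called.

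Beside sterol synthesis, Oxct1, which uses ketone bodies, was the only tested gene of the ketone list and fell by 0.47 (limma adjusted p 0.022; up to 0.0837 and not called on leaving out LH transgenic pool 1 or any 1 wild type pool). The 4 tested genes of the prenyl branch, which draws on the product of Fdps, had 0 calls by limma (0 also at an unadjusted p under 0.05) and a median of 0.14. Genes that turn sterol into steroids or bile acids had 7 members on the array and none above the filter. Fatty acid synthesis had 5 of 9 genes called lower and 0 higher by limma (1 higher at an unadjusted p under 0.05; median -0.46). Elovl6, Me1, Scd2, Slc25a1 and Fasn fell by 1.98, 1.60, 1.11, 1.03 and 0.46. Elovl6 lengthens fatty acids, Me1 supplies NADPH, Scd2 desaturates, Slc25a1 exports citrate from mitochondria and Fasn builds palmitate. The call of Fasn was lost on leaving out LH transgenic pool 1 or wild type pool 2 or 3 (adjusted p up to 0.0692). A second probe set of Scd2 gave -0.26 (adjusted p 0.188).

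Over the 6 arrays, the genes most like the members in profile were Traf5, an adaptor of TNF receptors, Septin4, Enpep, a membrane aminopeptidase, Tph1, a tryptophan hydroxylase, and Uso1, a vesicle tether. Likeness was Pearson's r with the mean standardised profile of the 8 tested members, from 0.999 for Traf5 to 0.992 for Uso1, the highest among 5723 other genes. With 6 arrays in 2 groups such values mostly follow the gap between the groups. All 5 shared the low LH transgenic pool 2, which choosing genes by likeness to the members favours. Traf5 had 1484.8, 1295.1 and 1420.6 in wild type and 859.9, 668.0 and 911.5 in LH transgenic pools.

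Several cell type markers moved with the same comparison. Fat cell markers fell in 11 of 15 tested genes, among them Retn (-2.02) and Agt (-1.88), and their summed signal was 245764 to 281472 in wild type and 143227 to 161393 in LH transgenic pools. Skeletal muscle markers fell in 6 of 12 (12 without LH transgenic pool 3 and 3 without LH transgenic pool 1), with sums of 106294 to 120639 against 22568 to 94428, the last in LH transgenic pool 3. Endothelial markers fell in 7 of 9, among them Ramp2 (-1.33) and Emcn (-1.31) (32042 to 37639 against 14698 to 17577) and fibroblast markers in 4 of 7 (2 without wild type pool 3), with sums of 105604 to 142200 against 73724 to 97869. Alveolar and milk genes rose in 12 of 15, among them Csn1s2b (2.84) and Glycam1 (2.16) (270719 to 470830 against 702890 to 851892), macrophage markers in 4 of 9 (33348 to 52726 against 63530 to 76558) and cell division genes in 5 of 11 (15115 to 21002 against 25471 to 28540). Luminal markers rose in 3 of 8 (54572 to 61856 against 64560 to 86797), and Krt18, a defining luminal keratin, had 13208 ± 1081 and 13650 ± 1931 (SD, n = 3 each). Basal markers rose in 1 of 5 tested (2 without LH transgenic pool 3), with sums of 16499 to 20377 against 23410 to 26076 and with Krt5 and Krt14 under the filter, and B and T cell markers in 1 of 3 (0 without wild type pool 1 or 3), with sums of 1913 to 2451 against 2756 to 3274. By brightest probe set in the main setting, no marker list had genes called in both directions, though 2 fat cell markers had differences above 0. With no filter, the B and T cell list had 1 gene called higher and 1 lower. With array weights, or without LH transgenic pool 3, the fat cell list had 1 higher and 11 lower. Krt17, a basal marker, had no call by its brightest probe set. Dimmer ones were called higher (0.93, limma adjusted p 0.00892) and lower (-1.37, adjusted p 0.02). Scaled to the bacterial controls, the medians of the macrophage (-0.08), cell division (-0.14), luminal (-0.29), basal (-0.49) and B and T cell lists (-0.01) lay below 0, while that of the alveolar and milk genes stayed above (0.45). The part of these shifts in the lower enzyme signals was not tested.

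**Figure D3:**
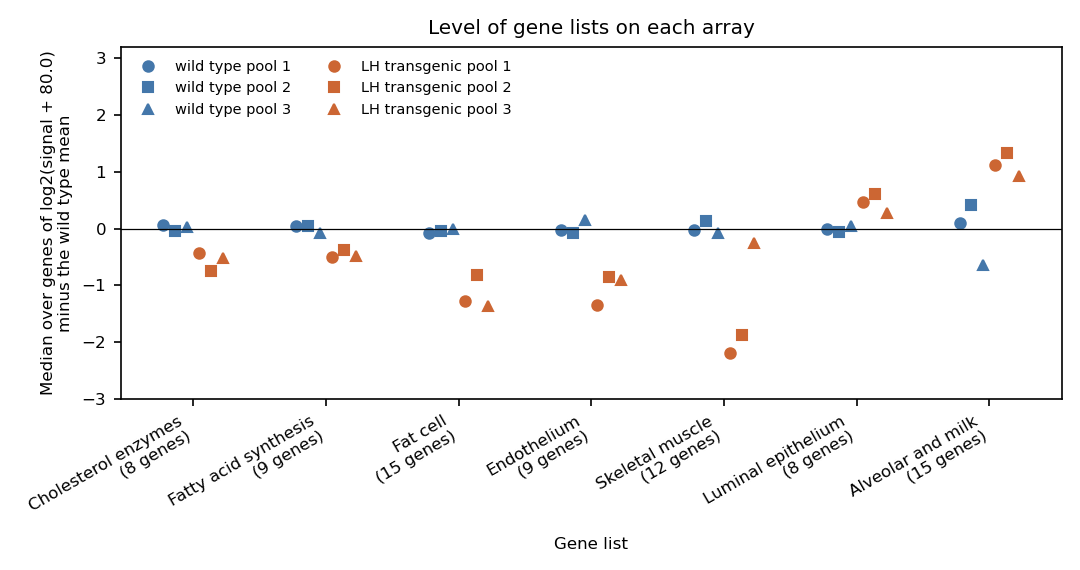
Median over the tested genes of a list of log2(signal + 80.0) minus the wild type mean (vertical axis) on each array, for 7 gene lists (horizontal axis). Points are arrays, blue for wild type and orange for LH transgenic, with the shape giving the pool. Cholesterol enzymes lie between -0.74 and -0.43 in the LH transgenic pools and fat cell markers between -1.36 and -0.82, and the orders of the 3 pools differ.

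The order of the pools differed between these lists. LH transgenic pool 2 had the lowest median of the cholesterol enzymes (-0.74) and the highest of the fat cell markers within its group (-0.82, against -1.28 and -1.36 in pools 1 and 3). Skeletal muscle markers had -2.20, -1.88 and -0.26 in LH transgenic pools 1 to 3. In pool 3, where muscle markers lay nearest to wild type, the median of the enzymes was -0.51. Whether the enzymes follow the markers from pool to pool was not tested, and 3 pools per group are too few to tell.

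The arrays had trimmed means of 1500.8 or 1500.9 and medians of 540.6 to 583.4. The ratio of 3′ to 5′ signal of the Gapdh controls was 1.15 to 1.37 in wild type and 1.05 to 1.41 in LH transgenic arrays, and that of the Actb controls 2.02 to 2.23 and 1.27 to 2.09. The bacterial controls added at hybridisation averaged 3359 to 4433 in wild type and 5219 to 7147 in LH transgenic arrays. With each array divided by that level, the median of all genes was -0.64 and that of the 8 members -1.26, and Ebp differed by -0.13. All 11 tested probe sets of members were then called lower, as were 3859 of the 7453 tested probe sets of the whole table. Dividing an array by 1 factor moves members and all genes alike. Of the 6 arrays, LH transgenic pool 2 had the lowest median (540.6), the highest bacterial control level (7147) and the highest Gapdh ratio (1.41). Its Actb ratio of 2.09 was the highest of its group. This pool was also the lowest of its group for 6 of the 8 tested members (for Sqle nearly tied with pool 1), and a link was not tested.

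**Figure D4:**
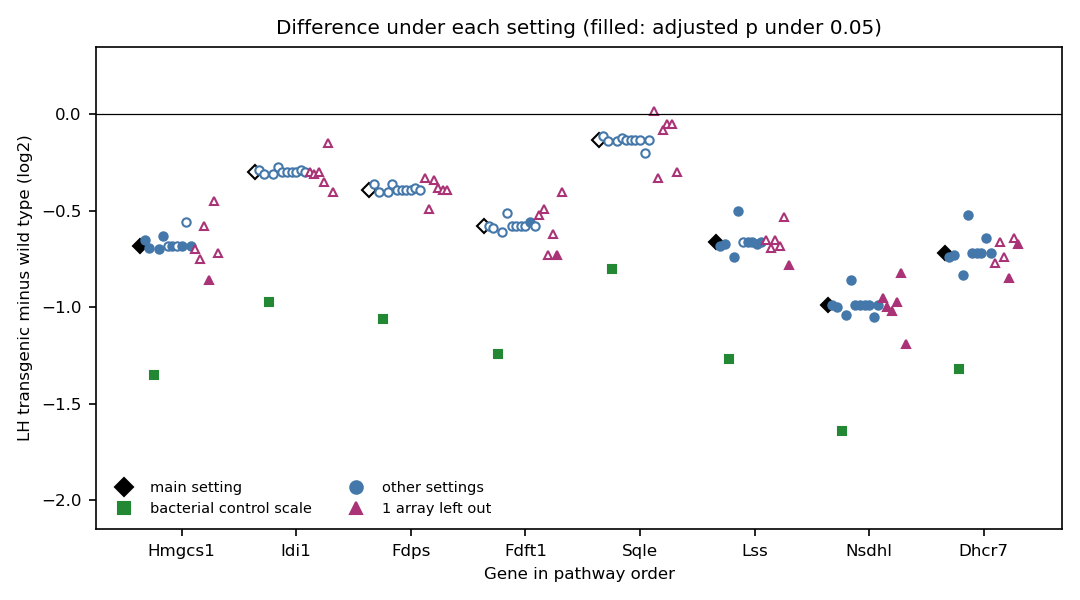
Difference between groups (vertical axis, log2) for the 8 tested members (horizontal axis) under the main setting, bacterial control scale, other settings and with 1 array left out. Each symbol is 1 fit, filled where the adjusted p was under 0.05. Nsdhl is filled throughout, and the bacterial control scale gives the lowest value of every gene.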

How the data were processed

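RNA from 6 pools of mammary glands was measured on Affymetrix arrays. The authors deposited 1 intensity per probe set and array, a MAS5 signal per the submitters' processing notes; its version and detection calls, and a genome build, were not given in the sources used here. The table held 12488 probe sets, 66 of them controls, which were left out. The platform annotation names 1 gene for 10833 probe sets, which were used, and several for 396; the 9 members kept their symbols when looked up by gene ID in RefSeq (GRCm38.p6).

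From the deposited intensity, log2(signal + 80.0) was taken, with the 20th percentile of the values as the pseudocount, which understates changes of dim genes. Probe sets with a mean of at least 336.0 (the 40th percentile) were tested with limma 3.58.1 in R 4.3.3 (lmFit, eBayes with a trend, two-sided, Benjamini-Hochberg over 7453 probe sets, threshold 0.05), without covariates. The fit was tried on simulated data with known changes and independent noise, which held no shift shared by an array. Groups came from the source names. The pools of a group hold different mice per the labels. The deposited arrays share a common trimmed mean, so a shift of most genes is not visible. Arrays give no read depth, and their number limits the precision.

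The members, gene lists and naming rule were chosen with earlier results of these data known. Named were all members with every probe set, up to 6 called genes of each pathway list and up to 2 of a marker list by size, a few genes always (among them Srebf1, Srebf2 and Insig1; others are not reported here), and the 5 genes most alike in profile. Other genes without a call were picked to be named once their values were known. The alternatives were 3 other scalings, 2 other pseudocounts (16.8 as a floor, or 336.0 added), no filter or a mean of at least 933.0, 3 other variance models, 1 probe set per gene, and leaving out each array.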

Additional observations from a re-analysis of the deposited data

How the results depend on the processing

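No paired analysis was possible because the labels give the groups no shared replicate numbers and pair no arrays. Against 5 member probe sets called lower, 11 were called with the bacterial controls as the scale, 3 with no filter and 3 with the stricter filter, under which those of Lss and Dhcr7 were not tested. Counted by gene, there were 8, 2 and 2 in these settings, against 4. Leaving out each array gave 2 to 5 member probe sets and 1 to 3 member genes. In these fits 507 (without wild type pool 3) to 896 (without LH transgenic pool 3) probe sets of the whole table were called lower, against 805, and 434 to 745 higher, against 781. With the bacterial controls as the scale, 3859 were lower and 140 higher, and the difference of Ebp turned to -0.13 (adjusted p 0.68). No member was called higher in any setting. The fit with 1 probe set per gene gives no count of probe sets. The differences of the 11 tested member probe sets and of 14 other named genes kept their sign in the 17 settings (where tested), except those of Ebp, of Sqle (0.02 without wild type pool 1) and of Srebf1 (0.09 without LH transgenic pool 1). With 3 arrays per group, a missed call does not show that a gene was equal between groups.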
